A study of Mus musculus with 6 samples.

Results

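The 10 genes described here are markers of the granulocytes that take part in allergy, measured by RNA sequencing in monocytes enriched from femoral and mandibular bone marrow. They were taken from the count table by symbol, as 10 of its 57010 genes. Of these, 5 are eosinophil genes (Prg2, Prg3, Epx, Il5ra and Siglecf) and 5 are genes of basophils and mast cells (Mcpt8, Prss34, Cpa3, Ms4a2 and Fcer1a). The femur group held 3 libraries (S13, S15 and S18) and the mandible group 3 libraries (S16, S19 and S23), all from C57BL/6 mice (C57BL/6J in the study's methods) of 1 year, with no treatment named beyond the isolation of the cells. The study compared these monocytes, as precursors of osteoclasts, between the 2 skeletal sites. The monocytes were the unlabelled cells that ran through a magnetic column after antibodies had marked the other marrow cells, so the libraries can hold RNA of cells that the antibodies missed. Male and female mice were used, but the sex, the animal and the batch of each library are not given in the sources used here. Nothing says that the libraries came from separate animals, so the p-values measure only the spread between these libraries. All 10 genes passed the filter on low counts and were tested among 18114 genes.

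Eosinophils, basophils and mast cells arise from marrow progenitors that depend on the GATA factors GATA-1 and GATA-2. Eosinophils mature in the marrow under interleukin-5 and store cationic proteins in their granules. Basophils also mature in the marrow, whereas mast cells complete their maturation in tissues, and both carry the high-affinity receptor for IgE and store proteases.

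Levels are given as counts per 1000000 counts (CPM) after TMM scaling, a scaling of each library by edgeR, and as CPM per kilobase of gene length (RPKM) where the levels of single genes are ranked. Sums, ratios and pattern distances were taken on CPM or counts, unless RPKM is named, and compared between libraries. The libraries held 15718782 to 25371474 counts on genes. S15, S16 and S23 stood apart from the others. S15 had a count in 40494 genes, against 17481 to 23513 in the other libraries. S16 had the fewest, and 2037 tested genes were at 0 in it, against 31 to 1121 in each of the others. S23 had 1441 CPM of Xist, which is transcribed from the inactive X chromosome, and no count of 4 Y-linked genes. Each of the other libraries had counts of Y-linked genes, and Xist and these 4 genes together summed to 153 to 212 CPM in them. S23 is a mandible library, so the groups were not alike in these genes, and the part of this in the results was not tested.

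Across the 10 genes the log2 fold change of mandible over femur was below 0 in 10 of 10, where 52.2% of all tested genes were below 0, although Prss34 and Cpa3 lay above 0 after a correction for gene length. The eosinophil genes Prg2 and Prg3 were called lower in the mandible (edgeR's quasi-likelihood test, p under 0.05 after Benjamini-Hochberg adjustment and a change of at least 2-fold), where 1.3% of all tested genes were called lower. None was called higher, against 3.88% of all tested genes, and none was higher at an unadjusted p under 0.05 or in DESeq2. At an unadjusted p under 0.05, 4 were lower (Prg2, Prg3, Epx and Siglecf), against 7.25% of all tested genes, and DESeq2 called the same 4 lower, against 2.47% of the genes it tested. The median log2 fold change was -2.33 over the eosinophil genes and -0.80 over the basophil and mast cell genes, beside -0.04 over all tested genes. In bulk RNA, fewer cells of a type and less RNA per cell cannot be told apart.

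**Figure D1:**
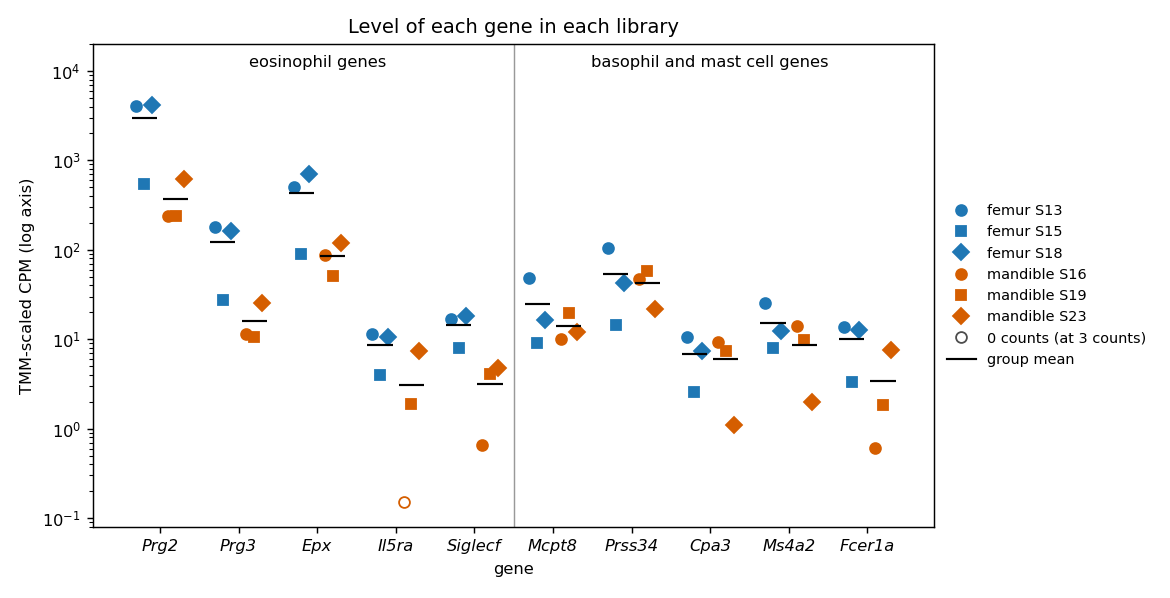
Level of each gene in each library, in TMM-scaled CPM on a log axis, with femur libraries in blue, mandible libraries in orange and the group mean as a black line. Prg3 and Siglecf are the 2 genes whose mandible libraries all lie below the femur libraries, as in 11.5% of all tested genes. The open circle marks the 0 counts of Il5ra in S16, drawn at the level of 3 counts.

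Among the femur libraries S15 was the lowest for 10 of the 10 genes, while it was the lowest for 34.3% of all tested genes. S13 was the highest femur library for 7 genes, including all 5 basophil and mast cell genes, and S18 for the other 3. Of all tested genes, S13 was the highest femur library for 28.9% and S18 for 27.5%. Among the mandible libraries S23 was the highest for 5 of the 5 eosinophil genes and the lowest for 3 of the 5 basophil and mast cell genes. Of all tested genes, S23 was the highest mandible library for 38.4% and the lowest for 35.4%.

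The stretch of 250 bases before the transcription start was read for 9 of the 10 genes from RefSeq promoters of GRCm38.p6 and searched on both strands for GATA words. These were AGATAA and, with a last G, AGATAG, as well as TGATAA and, with a last G, TGATAG, and words may overlap. A word was found in 6 of 9 (Prg3, Il5ra, Prss34, Cpa3, Ms4a2 and Fcer1a), where 26.5% of 32851 promoters held one, and not in those of Epx, Siglecf and Mcpt8. Part of the Mcpt8 stretch (chr14:56085198-56085447, minus strand) lay inside the gene as annotated in GENCODE M21 (56082166 to 56085273). The C/EBP word TTGCNNCAA was found in 0 of 9, where 1.74% of all promoters held one. A match is a run of letters and was not tested for binding. Some promoters are shown in the orientation of the gene, with the GATA words in capitals, chosen after the values of the genes were seen. Of the promoters without a word, those of Siglecf and Mcpt8 are not shown. Those shown are Prg3 (chr2:84987965-84988214, plus strand) and Epx (chr11:87875537-87875786, minus strand) of the eosinophil granule, Cpa3 (chr3:20242182-20242431, minus strand) and Ms4a2 (chr19:11623720-11623969, minus strand), and the protease Prss34 (chr17:25298144-25298393, plus strand).
Prg3: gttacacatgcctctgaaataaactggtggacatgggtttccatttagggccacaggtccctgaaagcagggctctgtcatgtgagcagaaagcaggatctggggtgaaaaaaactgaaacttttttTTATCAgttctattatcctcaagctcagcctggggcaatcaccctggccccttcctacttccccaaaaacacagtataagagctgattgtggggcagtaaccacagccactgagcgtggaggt
Epx: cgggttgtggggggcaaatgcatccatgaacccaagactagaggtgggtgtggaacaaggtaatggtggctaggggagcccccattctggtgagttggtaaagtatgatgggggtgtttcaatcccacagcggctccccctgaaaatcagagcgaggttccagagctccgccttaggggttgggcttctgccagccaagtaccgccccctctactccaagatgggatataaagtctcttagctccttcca
Cpa3: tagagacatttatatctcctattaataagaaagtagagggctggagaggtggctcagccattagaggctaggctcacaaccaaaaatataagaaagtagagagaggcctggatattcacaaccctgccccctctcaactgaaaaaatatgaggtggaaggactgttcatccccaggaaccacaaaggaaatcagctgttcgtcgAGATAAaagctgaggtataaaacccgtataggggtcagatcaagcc
Ms4a2: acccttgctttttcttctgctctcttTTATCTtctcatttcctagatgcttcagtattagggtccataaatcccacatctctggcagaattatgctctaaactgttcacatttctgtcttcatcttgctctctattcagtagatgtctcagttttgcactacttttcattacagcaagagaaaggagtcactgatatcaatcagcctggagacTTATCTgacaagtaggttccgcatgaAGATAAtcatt
Prss34: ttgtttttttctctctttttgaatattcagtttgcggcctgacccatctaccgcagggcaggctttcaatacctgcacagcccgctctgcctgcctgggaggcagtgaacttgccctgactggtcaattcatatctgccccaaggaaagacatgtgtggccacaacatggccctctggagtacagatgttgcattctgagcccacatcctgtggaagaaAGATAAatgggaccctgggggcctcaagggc
The first base of the word lay 31 bases before the start in Prss34, 46 in Cpa3 and 123 in Prg3. Ms4a2 held 3 words, of which the nearest began 11 bases before the start.

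Prg2 encodes major basic protein, the most abundant protein of the eosinophil granule core. It lies on chromosome 2 (84980461 to 84983632, plus strand, GRCm38) and was the most abundant of the 10 genes. Its level was 4098 CPM in S13, 543 CPM in S15 and 4194 CPM in S18 of the femur. In the mandible it was 241 CPM in S16, 242 CPM in S19 and 618 CPM in S23. The groups overlapped in 1 pair, since femur S15 lay below mandible S23. The mean was 2945 ± 2081 CPM in femur and 367 ± 217 CPM in mandible libraries (SD, n = 3 each), and the log2 fold change was -3.00 (SE 0.70, edgeR adjusted p = 0.0306), or 8.02-fold. The exact two-sided permutation test gave p = 0.2 for Prg2, and 0.1 is the smallest p that 3 libraries against 3 allow.

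Prg3, a second major basic protein gene, lies 4582 bases downstream of Prg2 on the same strand (84988215 to 84993886). Its level was 179, 27.5 and 162 CPM in S13, S15 and S18, and 11.6, 10.6 and 25.3 CPM in S16, S19 and S23. All mandible libraries lay below all femur libraries, as they did in 11.5% of all tested genes (24.2% in either direction), but S23 was close to S15. The mean fell from 123 ± 82.8 to 15.8 ± 8.20 CPM (SD, n = 3 each), with a log2 fold change of -2.96 (SE 0.61, edgeR adjusted p = 0.0160, exact permutation p = 0.1). Of the 50-base words of Prg2 and of Prg3, 0% occur in another annotated gene. Both calls were lost when S13, S18, S16 or S19 was left out. The log2 fold change was then -2.67 to -2.82 for Prg2 (edgeR adjusted p from 0.101 to 0.169) and -2.59 to -2.78 for Prg3 (edgeR adjusted p from 0.0531 to 0.110). Over all tested genes, 58 to 114 were called lower in these fits, against 236 with all libraries. Both calls held without S15 (log2 fold change -3.54 and -3.47) and without S23 (-3.66 and -3.52). Scaling to monocyte markers also ended both calls, at a log2 fold change of -2.52 for each (edgeR adjusted p = 0.0794 and 0.0629), and a correction for gene length ended that of Prg2, at -2.19 (edgeR adjusted p = 0.0812).

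Epx encodes eosinophil peroxidase, which makes hypobromous acid from bromide and hydrogen peroxide, and lies on chromosome 11 (87864000 to 87875536, minus strand). Its level was 505 CPM in S13, 89.3 CPM in S15 and 707 CPM in S18, against 87.8 CPM in S16, 50.4 CPM in S19 and 120.0 CPM in S23. As for Prg2, only S15 and S23 overlapped between the groups. The log2 fold change was -2.33 (SE 0.61), and Epx missed the threshold (edgeR adjusted p = 0.0524, exact permutation p = 0.2). Without S15 it was called (-2.86, adjusted p = 0.000679 in edgeR), and over all alternatives its adjusted p ran from 2.67e-10 to 0.215.

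Il5ra encodes the alpha chain of the interleukin-5 receptor, which gives the cytokine its lineage specificity. The gene lies on chromosome 6 (106710357 to 106749037, minus strand). It had 205, 86 and 242 counts in S13, S15 and S18, and 0, 40 and 129 counts in S16, S19 and S23. The 0 in S16 allows up to 0.150 CPM, and this library had 0 counts in 509 tested genes that held at least 10 counts in every other library, against 0 to 183 such genes in each of the others. On the CPM scale the femur libraries lay at 3.96 to 11.3 and the mandible libraries at 0 to 7.38, so the groups overlapped. The log2 fold change of Il5ra was -1.49 (SE 1.17, edgeR adjusted p = 0.637), -0.91 without S16 and -3.23 without S23.

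Siglecf, the gene of an inhibitory sialic acid receptor that marks mouse eosinophils and alveolar macrophages, lies on chromosome 7 (43351341 to 43359531, plus strand). Its level was 16.8, 8.02 and 18.3 CPM in S13, S15 and S18, and 0.650, 4.08 and 4.75 CPM in S16, S19 and S23. The groups did not overlap, and S16 stood below the other mandible libraries with 13 counts. The log2 fold change was -2.19 (SE 0.69), which missed the threshold in edgeR (adjusted p = 0.113, exact permutation p = 0.1). Without S16 it was -1.70. Prg3 and Siglecf were the 2 of 10 genes without overlap. Of all tested genes, 11.5% lay lower in the mandible without overlap, and 24.2% had no overlap in either direction.

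The basophil proteases overlapped widely between the sites. Mcpt8, a serine protease of mouse basophils, lies on chromosome 14 (56082166 to 56085273, minus strand) and overlaps the microRNA gene Mir6949. Its level was 48.3, 9.03 and 16.3 CPM in S13, S15 and S18, and 10.1, 19.8 and 12.2 CPM in S16, S19 and S23. The femur held both the highest and the lowest of the 6 values. It gave a log2 fold change of -0.80 (SE 0.56, edgeR adjusted p = 0.569), and it was 0.15 without S13.

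Prss34, the gene of mast cell protease 11, which basophils secrete, lies on chromosome 17 (25298394 to 25300165, plus strand). Its level was 106, 14.6 and 42.5 CPM in S13, S15 and S18, and 46.6, 58.2 and 21.96 CPM in S16, S19 and S23. Its median was higher in the mandible (46.6 CPM) than in the femur (42.5 CPM), while its mean was lower (42.3 ± 18.5 against 54.3 ± 46.7 CPM, SD, n = 3 each). Prss34 had a log2 fold change of -0.36 (SE 0.58, edgeR adjusted p = 0.859), and it was above 0 without S13 (0.57) and after a correction for gene length (0.16).

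Cpa3, the gene of carboxypeptidase A3 of basophils and mast cells, lies on chromosome 3 (20215620 to 20242181, minus strand) and overlaps Mir7007. Its level was 10.6, 2.58 and 7.47 CPM in S13, S15 and S18, and 9.41, 7.36 and 1.09 CPM in S16, S19 and S23. The low values were S15 in the femur and S23 in the mandible, the latter with 19 counts. Its log2 fold change was -0.21 (SE 0.78, edgeR adjusted p = 0.948). Cpa3 was above 0 without S13 (0.25), without S23 (0.23) and after the length correction (0.17).

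The alpha and beta chains of the IgE receptor were not ordered alike in the mandible. Fcer1a, the gene of the alpha chain that binds IgE, lies on chromosome 1 (173221284 to 173227214, minus strand). Its level was 13.8, 3.36 and 12.7 CPM in S13, S15 and S18, and 0.6005, 1.85 and 7.66 CPM in S16, S19 and S23. Ms4a2, the gene of the beta chain that amplifies the signal, lies on chromosome 19 (11615523 to 11623719, minus strand). Its level was 25.2, 7.88 and 12.5 CPM in S13, S15 and S18, and 14.1, 9.88 and 2.002 CPM in S16, S19 and S23. Fcer1a was thus lowest in S16 and highest in S23, and Ms4a2 the reverse. The log2 fold change was -1.56 (SE 0.87, edgeR adjusted p = 0.439) for Fcer1a and -0.81 (SE 0.66, edgeR adjusted p = 0.653) for Ms4a2. Without S23 the values were -3.06 and -0.39, and neither gene was called. In exact permutation tests the p of the 5 basophil and mast cell genes ran from 0.2 for Fcer1a to 1.0 for Prss34.

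**Figure D2:**
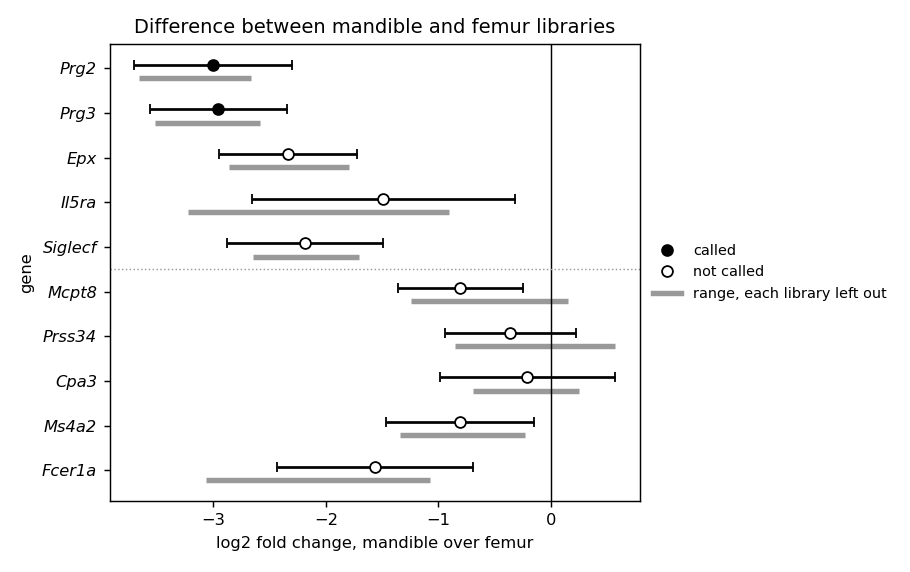
Log2 fold change of mandible over femur for each gene, with its SE as the black bar and the range over 6 fits that each left out 1 library as the grey bar, and filled circles for called genes. The grey bars of the 5 eosinophil genes stay below 0, and those of Mcpt8, Prss34 and Cpa3 cross 0.

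In summed CPM within each library, the 5 eosinophil genes outweighed the 5 basophil and mast cell genes at both sites, and by more in the femur. The summed level of the 5 eosinophil genes was 4810, 672 and 5092 CPM in S13, S15 and S18, and 341, 309 and 775 CPM in S16, S19 and S23. Prg2 alone made up 70.7 to 85.2% of their counts. The summed level of the 5 basophil and mast cell genes was 204, 37.4 and 91.6 CPM in the femur libraries in the same order, and 80.8, 97.1 and 44.9 CPM in the mandible libraries. The first sum was therefore 23.6, 17.96 and 55.6 times the second in S13, S15 and S18, and 4.22, 3.18 and 17.3 times in S16, S19 and S23. Every mandible library had a lower ratio than every femur library, but S23 was close to S15. Summed per length, as RPKM, the ratio was 32.002, 24.7 and 74.2 in S13, S15 and S18, and 5.53, 4.11 and 20.6 in S16, S19 and S23.

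With equal weight for each gene, the mean log2 CPM of the eosinophil genes minus that of the basophil and mast cell genes was 2.38, 2.44 and 3.36 in S13, S15 and S18. It was -1.05, 0.54 and 2.77 in S16, S19 and S23. On this scale S23 lay within the femur range. The mean difference was 2.72 ± 0.55 in the femur and 0.75 ± 1.92 in the mandible (SD, n = 3 each), or -1.97 for mandible minus femur. It was -1.64 without Il5ra, whose 0 in S16 enters the log scale with a prior count, and -1.07 without S16. A difference between chosen genes was not tested.

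Per length, the 5 most abundant genes were the same at both sites, and Prss34 was the fourth in the femur and the second in the mandible. In the femur the mean was 3514 ± 2483 RPKM for Prg2, 159 ± 115 for Epx, 129 ± 87.3 for Prg3, 44.5 ± 38.3 for Prss34 and 24.6 ± 20.9 for Mcpt8 (SD, n = 3). In the mandible it was 438 ± 259 RPKM for Prg2, 34.6 ± 15.2 for Prss34, 31.4 ± 12.7 for Epx, 16.7 ± 8.64 for Prg3 and 14.1 ± 5.14 for Mcpt8 (SD, n = 3). Prg2 was the highest in 6 of 6 libraries. Epx exceeded Prss34 in 3 of 3 femur libraries and in 1 of 3 mandible libraries (S23), and Prss34 exceeded Mcpt8 in 6 of 6. Prg3 exceeded Epx in 1 of 6 libraries. The other 5 genes averaged 2.42 to 9.97 RPKM in femur libraries and 0.865 to 3.92 RPKM in the mandible. Among them Ms4a2 and Siglecf, and Siglecf and Cpa3, exchanged places between libraries, each being the higher in 3 of 6, while Il5ra was below Fcer1a in 6 of 6.

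The genes differed in how tightly their counts moved with each other. Prg2 and Prg3 kept almost the same proportion in every library. The count ratio of Prg2 to Prg3 was 22.96, 19.8 and 25.9 in S13, S15 and S18, and 20.9, 22.7 and 24.4 in S16, S19 and S23. The highest ratio was 1.31 times the lowest, while the level of Prg2 spanned 17.4 times. The same measure was 2.28 for Cpa3 over Ms4a2, 2.86 for Mcpt8 over Prss34 and 2.95 for Prg2 over Epx. It was 21.1 for Prg2 over Mcpt8, an eosinophil and a basophil gene.

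The ratio of Ms4a2 to Fcer1a, the 2 receptor chains, was 1.83, 2.34 and 0.983 in S13, S15 and S18, and 23.5, 5.33 and 0.261 in S16, S19 and S23, where the highest was 89.97 times the lowest. That of Cpa3 to Fcer1a spanned 110.5 times. The femur values lay within a narrow range and the mandible values on both sides of it. By contrast, the ratio of Il5ra to Fcer1a was 0.823, 1.18 and 0.840 in S13, S15 and S18, and 1.03 and 0.963 in S19 and S23, with Il5ra at 0 counts and Fcer1a at 12 counts in S16. The pairs were chosen after their values were seen.

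**Figure D3:**
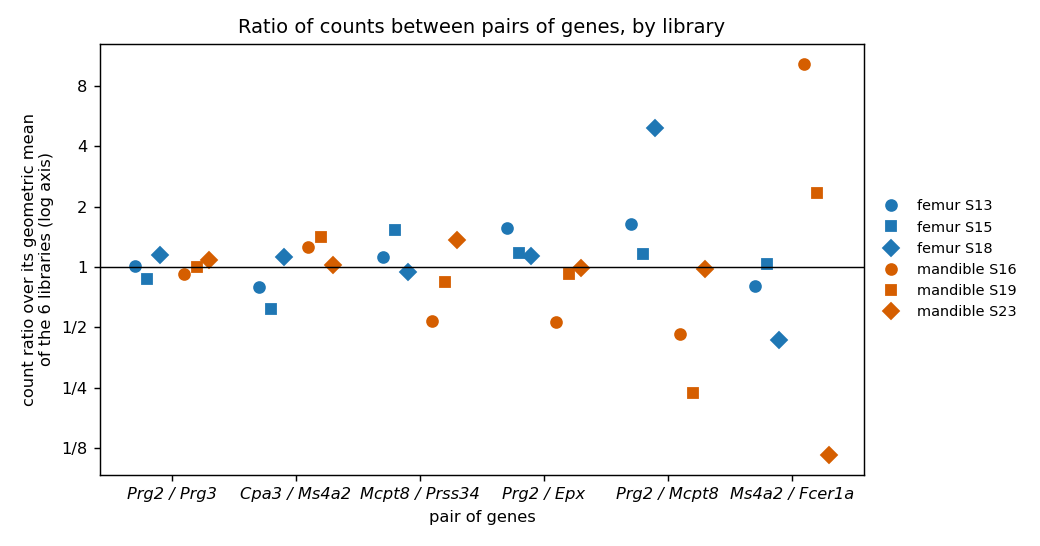
Count ratio of 6 pairs of genes in each library, divided by the geometric mean of that ratio over the 6 libraries, on a log axis. Prg2 over Prg3 lies close to 1 in every library (19.8 to 25.9 before division), whereas Ms4a2 over Fcer1a spreads widely (0.261 in S23 to 23.5 in S16 before division).

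Nearness of pattern was measured as the root mean square difference of centred log2 CPM over the 6 libraries, as a description with no test. Prg2 and Prg3 lay at 0.13, Cpa3 and Ms4a2 at 0.40, Mcpt8 and Prss34 at 0.50, and Siglecf and Fcer1a at 0.65. Fcer1a was thus nearer to an eosinophil gene than to any of the other basophil and mast cell genes. Over the 5 libraries in which Il5ra had a count, it lay nearest to Fcer1a (0.19) and next to Siglecf (0.63).

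Among genes outside the 10, those nearest to Prg2 were Ear6 (0.25) and Ear1 (0.37), which encode eosinophil ribonucleases, and the predicted genes Gm23971 (0.48), Gm22422 (0.50) and Gm25360 (0.51), with lengths of 135 to 191 bases in the count table. Ear6 was at 282, 57.9 and 427 CPM in S13, S15 and S18, and at 19.9, 16.6 and 53.7 CPM in S16, S19 and S23. The genes nearest to Mcpt8 were Cbr1 (0.14), ENSMUSG00000120484 (0.19), Cd163 (0.24), Clybl (0.25) and Ptprcap (0.26). Cbr1, a carbonyl reductase, ranged from 3.32 CPM in S15 to 16.3 CPM in S13, and Cd163, a scavenger receptor of macrophages, from 3.30 CPM in S16 to 14.97 CPM in S13.

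Other genes of the lineages were described from lists. Of 19 other eosinophil genes, 11 were tested, 4 were called lower and 0 higher, with a median log2 fold change of -1.59. The log2 fold change was below 0 in 9 of the 11, and -0.02 in Adgre1 (SE 0.31). Above 0 were Rnase2a (0.62, SE 1.66, edgeR adjusted p = 0.926) and Il1rl1 (0.58, SE 0.32, edgeR adjusted p = 0.434). For Il1rl1 all mandible libraries lay above all femur libraries, as for 12.7% of all tested genes. The called genes were the ribonucleases Ear6 (-3.09, SE 0.66, edgeR adjusted p = 0.0199), Ear1 (-2.77, SE 0.61, edgeR adjusted p = 0.0235) and Ear2 (-2.17, SE 0.56, edgeR adjusted p = 0.0487), and Serpinb2 (-3.17, SE 0.61, edgeR adjusted p = 0.0114), an inhibitor of plasminogen activators that monocytes also make. Of the 50-base words of Ear1, 57.4% occur in other Ear genes, and 41.5% of those of Ear2 and 0.954% of those of Ear6, so that the division of reads between Ear1 and Ear2 is uncertain. Ccr3, the eotaxin receptor of eosinophils and basophils, was at 10.5, 2.76 and 9.01 CPM in the femur and at 3.70, 0.332 and 0.744 CPM in the mandible, where S16 overlapped S15 (log2 fold change -2.22, SE 0.95, edgeR adjusted p = 0.264).

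Of 18 other basophil genes, 16 were tested and 0 were called in either direction in edgeR or DESeq2, with 1 at an unadjusted p under 0.05 (lower) and a median of -0.47. The 3 with the highest levels were Alox5ap, the activating protein of 5-lipoxygenase (-0.21, SE 0.28), Il18rap, a chain of the interleukin-18 receptor (-0.59, SE 0.38), and Hdc, which makes histamine (-0.76, SE 0.46). Cd200r3, a surface receptor of basophils, was at 4.197 to 8.34 CPM in femur libraries and 3.002 to 4.52 CPM in the mandible, and the groups overlapped.

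Of 27 other mast cell genes, 14 were tested, 0 were called lower (3 at an unadjusted p under 0.05, and 2 in DESeq2) and 1 higher. The gene called higher was Gzmb, the cytotoxic protease granzyme B, which T and NK cells also make (log2 fold change 2.90, SE 0.73, edgeR adjusted p = 0.0442). Among the genes of mature mast cells, Tpsab1 and Tpsb2 (tryptases), Mcpt4 (a chymase), and Mrgprb1 and Mrgprb2 (receptors) had 8, 21, 9, 14 and 2 counts in S15. Together they had 1 count in the other 5 libraries, of Tpsb2 in S19. S15 had a count in 40494 genes, against 17481 to 23513 in the other libraries. It held 1 to 10 counts in 16614 genes, against 1288 to 5639 in the others, so low counts were not particular to mast cell genes. Mcpt2, a chymase chosen after its values were seen, had 9 counts in S13, 12 in S15 and 0 elsewhere. Kit, the receptor for stem cell factor on progenitors and mast cells, was at 50.8, 12.2 and 55.05 CPM in the femur and at 29.9, 25.5 and 12.4 CPM in the mandible. Cma1, a chymase, had 0, 4 and 0 counts in the femur libraries and 15, 12 and 8 in the mandible libraries, and was not called (edgeR adjusted p = 0.538).

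Signaling partners of the receptors were described from 2 further lists. Of 15 genes of the system of the common beta chain, which serves interleukin-3, interleukin-5 and GM-CSF, 12 were tested and 0 were called in edgeR, with 2 at an unadjusted p under 0.05 (higher) and a median of 0.13. DESeq2 called 1 of them higher, Socs1, chosen after its value was seen. Csf2rb, the common beta chain that pairs with Il5ra, was at 142, 228 and 177 CPM in S13, S15 and S18, and at 141, 187 and 147 CPM in S16, S19 and S23 (log2 fold change -0.20, SE 0.27). Il5 had 5 and 13 counts in S13 and S15 and 0 elsewhere. Of 22 genes of IgE receptor signaling, 22 were tested and 0 were called in edgeR or DESeq2, with 3 at an unadjusted p under 0.05 (higher) and a median of 0.16. Fcer1g, the gamma chain that the IgE receptor shares with Fc receptors of monocytes, was at 182, 121 and 228 CPM in the femur and at 178, 171 and 104 CPM in the mandible (-0.23, SE 0.32).

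Of 23 genes of granule packaging and exocytosis, 20 were tested, 1 was called lower and 0 higher in edgeR, with a median of -0.38. At an unadjusted p under 0.05 in edgeR, 5 were lower and 0 higher, where 7.25% of all tested genes were lower. DESeq2 called 3 lower (Cd63, Rab27b and Srgn), against 2.47% of the genes it tested. The gene called in edgeR was Rab27b, a small GTPase of granule release (-1.76, SE 0.40, edgeR adjusted p = 0.0271). Of 21 transcription factors of these lineages, 21 were tested, 1 was called lower and 0 higher, with a median of -0.07. The called factor was Tal1 (-2.27, SE 0.45, edgeR adjusted p = 0.0128), which is also active in erythroid cells and megakaryocytes. Gata1, which eosinophils, basophils and erythroid cells use, was at 31.8, 12.7 and 11.0 CPM in the femur and at 7.76, 2.61 and 3.32 CPM in the mandible (-2.02, SE 0.58, edgeR adjusted p = 0.0786), and DESeq2 called it and Tal1 lower. DESeq2 also called 1 factor higher, Bhlhe40 (1.34, SE 0.36, edgeR adjusted p = 0.0569). Gata2, which basophils and mast cells use, was at 25.5 to 29.5 CPM in femur libraries and 14.96 to 32.3 CPM in the mandible (-0.34, SE 0.35). Fcer1g, Il5, Gata1, Gata2 and Bhlhe40 were chosen after their values were seen.

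Marker lists of other cell types also differed between the libraries, but not all in the order of the eosinophil genes. In the mandible the eosinophil sum was highest in S23, as were the megakaryocyte and platelet sum and the mesenchymal and dental sum. The neutrophil and monocyte sums were lowest in S23, and the erythroid sum was highest in S16. The sum of 14 neutrophil genes ran from 4127 to 34714 CPM in femur and from 4358 to 11403 CPM in mandible libraries, with its lowest femur value in S15, and 13 of 14 were below 0 and 1 was called lower. The sum of 12 erythroid genes ran from 369 to 2386 CPM in the femur, with the highest in S13 and the lowest in S15, and from 198 to 312 CPM in the mandible, and 12 of 12 were below 0 and 4 were called lower. Of 12 genes of megakaryocytes and platelets 11 were tested and 10 were called lower, with sums of 1037 to 1500 CPM in femur and 173 to 255 CPM in mandible libraries. The median log2 fold change was -0.82 over the neutrophil, -2.26 over the erythroid and -3.16 over the megakaryocyte and platelet genes, beside -2.33 over the eosinophil genes. At an unadjusted p under 0.05 in edgeR, 6, 11 and 11 genes of these 3 lists were lower. DESeq2 called 6, 7 and 11 of them lower. Of 16 mesenchymal and dental genes 16 were called higher, with sums of 164 to 204 CPM in femur and 15201 to 27163 CPM in mandible libraries. The sum of 12 monocyte genes ran from 8533 to 15080 CPM in femur and from 7132 to 12678 CPM in mandible libraries, with 0 called in edgeR and 2 higher at an unadjusted p under 0.05. Every gene of these 5 lists had a count in at least 1 library. Their part in the results for the 10 genes was not tested.

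Against the neutrophil sum, the eosinophil sum was 0.139, 0.163 and 0.202 in S13, S15 and S18, and 0.0442, 0.0271 and 0.178 in S16, S19 and S23. In this ratio S15 was no longer the lowest femur library, and S23 lay among the femur values. Against the other sums S15 stayed the lowest of the femur, at 1.82 beside 2.02 and 10.5 over the erythroid sum, 0.648 beside 3.76 and 3.40 over the megakaryocyte and platelet sum, and 0.0788 beside 0.467 and 0.338 over the monocyte sum (S15, then S13 and S18). The basophil and mast cell sum over the neutrophil sum was 0.00363 to 0.00907 in femur libraries and 0.00852 to 0.0105 in the mandible.

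**Figure D4:**
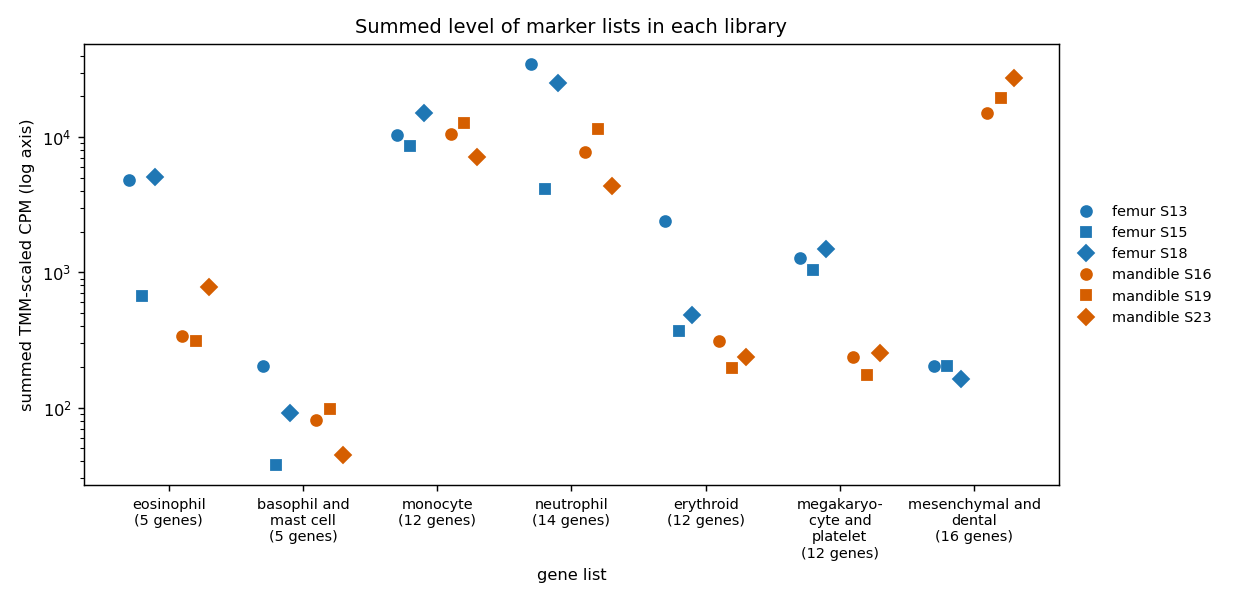
Summed TMM-scaled CPM of each marker list in each library on a log axis, with femur libraries in blue and mandible libraries in orange. The eosinophil sums are 672 to 5092 CPM in femur and 309 to 775 CPM in mandible libraries, the basophil and mast cell sums overlap, and S15 holds the lowest femur value of every list but the mesenchymal and dental one.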

How the data were processed

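The 6 libraries held RNA of bone marrow monocytes enriched from femur or mandible. The authors trimmed paired-end reads, mapped them with HISAT2 2.1.0 to a genome named as GRCm38, counted them with featureCounts (version, strand and multi-mapping settings not given in the sources used here) and deposited raw counts per gene and library, without normalization. Of 52029 genes shared with GENCODE M21, only 2979 lie, by the table, within the M21 gene, and positions are therefore those of M21 (GRCm38), matched by Ensembl identifier, and RPKM used the gene lengths of the table.

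The test was the quasi-likelihood test of edgeR 4.0.16 under R 4.3.3, after TMM scaling and filterByExpr (minimum count 10), with a prior count of 0.125, Benjamini-Hochberg adjustment over 18114 genes and no covariates, since no label gives sex, animal or batch. A call needed an adjusted p under 0.05 and a change of at least 2-fold. The 10 genes also had their log2 CPM tested by exact permutation (two-sided). A count of 0 allows up to 3 counts by counting error, which were 0.133 to 0.172 TMM-scaled CPM. The test was tried on simulated counts with known changes. Alternatives were DESeq2 1.42.0, other scalings, filters and thresholds, a loess correction on gene length (span 0.4), and each library left out in turn. Named were all 10 genes, in each other list up to 3 called genes with the largest change and up to 3 with the highest level, the 5 genes nearest to Prg2 and to Mcpt8, defining cell type markers and sex-linked genes. Not every gene that this rule admits is described, and some results are not reported here. The 10 genes and all lists were chosen with earlier results of these data known. Protein sequences were not analysed here.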

Additional observations from a re-analysis of the deposited data

How the results depend on the processing

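No paired analysis was possible because no label names the animal of a library. Of the 10 genes, 2 were called lower with all libraries. The number was 0 after scaling to the monocyte markers, 1 (Prg3) after the length correction, and 4 without a low-count filter, in DESeq2 and at an unadjusted p under 0.05 with the fold change threshold. It ran from 0 to 3 when 1 library was left out, with 0 without S13, S18, S16 or S19, 3 without S15 and 2 without S23. Over all tested genes, 236 of 18114 were called lower in the main fit and 47 after scaling to the monocyte markers. The number was 208 after the length correction, 571 of 42225 without a low-count filter and 543 of 22027 in DESeq2. It was 62, 95, 114 and 58 without S13, S18, S16 and S19, 608 without S15 and 163 without S23. No alternative called any of the 10 genes higher. The median of the 5 basophil and mast cell genes was -0.19 after the length correction and ran from -1.17 to 0.15 when 1 library was left out, above 0 only without S13. Reversed single genes were Mcpt8 without S13 (0.15), Prss34 after the length correction (0.16) and without S13 (0.57), and Cpa3 after the length correction (0.17), without S13 (0.25) and without S23 (0.23). Over the fits without 1 library Mcpt8 ran from -1.24 to 0.15, Prss34 from -0.86 to 0.57 and Cpa3 from -0.69 to 0.25. The median of the 5 eosinophil genes stayed between -3.23 and -1.87 in all alternatives, and the equal-weight difference of eosinophil minus basophil and mast cell genes ran from -2.98 to -1.07. Scaling to the monocyte markers moved the median of all tested genes from -0.04 to 0.11, and the length correction to -0.14. That median was -1.09 without a low-count filter and -0.84 in DESeq2, the fits that called 4 of the 10 genes lower. Where 1 library was left out of a group of 3, the spread was estimated from 5 libraries. The causes of these changes were not tested. Genes under about 20 counts in a library, such as Cpa3 in S23 and Siglecf and Fcer1a in S16, carry a large counting error.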

Other observations

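In S16, the library in which Il5ra had 0 counts, other genes of these lineages also had 0 counts while the basophil proteases did not, a pattern chosen after its values were seen. Slc18a2, the vesicular transporter of histamine and other amines, had 44, 73 and 137 counts in S13, S15 and S18, and 0, 16 and 64 in S16, S19 and S23. Hpgds, the hematopoietic prostaglandin D synthase, had 127, 49 and 36 counts in the femur libraries and 0, 17 and 40 in the mandible libraries. Il4, the basophil cytokine, had 32, 19 and 20 counts in the femur and 0, 22 and 15 in the mandible. None of these 3 genes was called (edgeR adjusted p = 0.703, 0.619 and 0.883). In the same library Prss34 had 931 counts, Mcpt8 202 and Cpa3 188. S16 held 0 counts in 2037 of the 18114 tested genes, against 31 to 1121 in the other libraries.

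Socs1 and Socs3, feedback inhibitors of cytokine signaling, did not pass the test in edgeR and were chosen after their values were seen. Socs1 was at 1.24 to 2.87 CPM in the femur and 6.03 to 8.71 CPM in the mandible (log2 fold change 1.76, SE 0.64, edgeR adjusted p = 0.174), and DESeq2 called it higher. Socs3 was at 9.45 to 18.2 CPM in the femur and 26.5 to 27.9 CPM in the mandible (1.04, SE 0.34, edgeR adjusted p = 0.131). The groups did not overlap for either gene, as for 12.7% of all tested genes in this direction.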
